A study of Homo sapiens with 12 samples.

Results

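The kinases described here were the ERK, JNK and p38 members of the mitogen-activated protein (MAP) kinase family. They were MAPK3 (ERK1), MAPK8, MAPK9 and MAPK10 (the JNK kinases) and MAPK11, MAPK12, MAPK13 and MAPK14 (the p38 kinases). The 8 genes were taken by symbol from the 60504 genes listed in the gene tables, as a kinase family in which many members carry minor introns. The rule used no expression value, but the family was chosen with earlier results of these data known.

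RNA was sequenced from the established human bladder cancer line T24, with 12 libraries in all. In the knockout comparison, 2 libraries had the label U11 knockout and 2 the label untreated. According to the methods of the study, the knockout cells carried Cas9 and a pair of guides against the U11 gene and were monoclonal, and the control cells received the guide vector. The overexpression comparison set 6 libraries of cells with a stably transfected U11 plasmid, expanded after monoclonal selection, against 2 libraries of untreated T24 cells. The overexpression libraries carried the line labels 79, 86 and 87, with 2 libraries each. What these labels stand for is not given in the sources used here. The titles also carried library codes. All 4 libraries of the knockout comparison had codes starting with R18051, and those of the overexpression comparison had R17018 (1 library per line label and 1 control) or R18019 (the same). Nothing in the labels says that the libraries of a group came from separate cultures, so the p-values measure the spread between these libraries.

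MAP kinases are the last kinases of layered cascades in which a MAP3K phosphorylates a MAP2K and the MAP2K phosphorylates the MAP kinase. ERK kinases are known as transducers of growth factor signals, and JNK and p38 kinases as transducers of stress and cytokine signals. U11 is the small nuclear RNA that pairs with the 5′ splice site of U12-type (minor) introns, a rare class of introns removed by the minor spliceosome. In bladder cancer, MAP kinase signalling is known to act downstream of growth factor receptors.

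All 8 genes held an annotated intron that matched the U12-type 5′ splice site in at least 1 of the searches made. An intron of at least 60 bases starting with ATATCCTT or GTATCCTT, which are the letters of the U12-type 5′ splice site, was found in 7 of the 8 genes. Of all genes with introns in GENCODE release 44, 1.61% held one (631 of 39107), and 0.201% of all introns had these letters. The family was chosen for its minor introns, so these shares are background and the contrast with them is no finding. The exception was MAPK12, whose intron matched with 1 mismatch. The search was read on the strand of each gene, with coordinates of hg38. The 5′ splice sites are shown because they are what U11 pairs with. The first 3 bases are exonic, and the capitals mark the first 8 bases of the intron.
MAPK3: tgtGTATCCTTcacc
MAPK8: actGTATCCTTgtgc
MAPK9: accGTATCCTTcccc
MAPK10: actGTATCCTTgtac
MAPK11: actGTATCCTTggcc
MAPK12: accGTATCCTCcagc
MAPK13: attGTATCCTTtgct
MAPK14: accGTATCCTTtaaa
These 15 bases lay at chr16:30121812-30121826 (minus strand) in MAPK3, chr10:48424157-48424171 (plus) in MAPK8, chr5:180247427-180247441 (minus) in MAPK9 and chr4:86098512-86098526 (minus) in MAPK10. For the p38 genes they lay at chr22:50266528-50266542 (minus) in MAPK11, chr22:50255798-50255812 (minus) in MAPK12, chr6:36136948-36136962 (plus) in MAPK13 and chr6:36076606-36076620 (plus) in MAPK14.

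The 3 JNK genes held a second intron with the same 8 letters, annotated from an alternative exon to the same 3′ splice site. It began in MAPK8 at chr10:48424583-48424597 (plus), in MAPK9 at chr5:180247843-180247857 (minus) and in MAPK10 at chr4:86089194-86089208 (minus), in the same format as above.
MAPK8, alternative exon: atcGTATCCTTatct
MAPK9, alternative exon: actGTATCCTTcaca
MAPK10, alternative exon: atcGTATCCTTctta
MAPK14 showed the reverse arrangement, with a single 5′ splice site joined to 2 annotated 3′ splice sites. In these 4 genes the matching site thus bordered an annotated choice between alternative exons.

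The branch site, the second U12-type signal, was searched as TTCCTTAAC with at most 2 mismatches, ending 6 to 40 bases before the intron end, in introns whose start had at most 1 mismatch. This search found 6 of the 8 genes, and 1.96% of all genes with introns as background. MAPK3 and MAPK11 were not among them, with at best 4 and 3 mismatches. The last 50 bases of the intron and 3 exonic bases are shown for the genes of this search whose intron start matched exactly. The closest match to the branch site is in capitals.
MAPK8: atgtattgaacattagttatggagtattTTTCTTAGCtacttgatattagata
MAPK9: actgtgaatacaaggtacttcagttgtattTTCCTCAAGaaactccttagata
MAPK10: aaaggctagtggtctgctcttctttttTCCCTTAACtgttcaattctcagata
MAPK13: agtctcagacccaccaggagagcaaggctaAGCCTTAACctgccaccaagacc
MAPK14: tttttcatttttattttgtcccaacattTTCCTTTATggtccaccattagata
They lay at chr10:48425838-48425890 (plus), chr5:180242753-180242805 (minus), chr4:86067953-86068005 (minus), chr6:36138315-36138367 (plus) and chr6:36095937-36095989 (plus). MAPK10 had 1 mismatch to the branch site letters and the other 4 had 2.

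The matching intron lay at nearly the same codon in the p38 genes, MAPK8 and MAPK9. In the canonical transcripts it interrupted codon 228 of MAPK11, MAPK13 and MAPK14, codon 231 of MAPK12 and codon 230 of MAPK8 and MAPK9, after the first base of the codon in each. In MAPK10 it interrupted codon 268, also after the first base. In coding bases, the intron before it, the matching intron and the next one followed base 730, 802 and 985 in MAPK10. In MAPK8 and MAPK9 they followed base 616, 688 and 871. The spacing was the same, with the MAPK10 positions shifted as a whole. In MAPK3 the matching intron was intron 2, interrupting codon 118 after the second base, so its place was not that of the other genes. A match describes these letters and is not a measurement of splicing, which the gene tables do not hold.

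Several facts of the whole series touch the values below. The libraries labelled U11 knockout did not show less U11 than their controls. The summed TPM (a transcript level scaled by transcript length and to a fixed total per library) of the 2 RNU11 entries was 31.6 and 37.4 in them and 21.4 and 23.8 in the controls, so they are called by their label throughout. In the overexpression comparison it was 0.0334 and 0.623 in the controls, 0.183 and 0.412 in line label 79, 3.98 and 3.72 in line label 86 and 61.9 and 53.6 in line label 87. Line label 79 thus lay within the range of its controls and showed no more U11 than they did. The controls and line label 79 stayed below 1 TPM, so their values are near the floor. The 10 highest genes took 45.5% to 49.6% of TPM in the knockout set but 7.06% to 7.56% in the overexpression set, so levels are not compared across the 2 sets. Depth, inferred from the ratio of coverage to FPKM, ran from 9.07 to 15.3 aligned gigabases. Of 12 urothelial markers, the keratins KRT7, KRT8, KRT18 and KRT19 and the factors GATA3, PPARG and FOXA1 reached 1 TPM in all 12 libraries, while the 4 uroplakins and KRT20, markers of differentiated umbrella cells, did so in none. Of 7 markers of other cell types 4 stayed below 1 TPM in all libraries, PTPRC, CD3E, PECAM1 and ALB, and HBB and CD14 reached at most 3.65 and 1.18 TPM. The summed level of the 7 was 0.346 to 5.58 TPM in the knockout comparison and 4.03 to 37.0 TPM in the overexpression comparison, the highest single value being 34.1 TPM of CDH5, a cadherin known from endothelium.

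Of the 8 kinases 7 were expressed in all 12 libraries and MAPK10 in none. MAPK10, the JNK gene known mainly from neurons, stayed between 0 and 0.248 TPM and was not tested. Among the others MAPK3 was the highest in TPM in 10 of 12 libraries and MAPK9 in the remaining 2. In the controls of the knockout comparison the mean levels were 35.0 TPM ± 6.25 (SD, n = 2) for MAPK3, 25.5 ± 2.27 for MAPK9, 18.3 ± 6.95 for MAPK14, 17.8 ± 1.31 for MAPK12, 10.5 ± 0.815 for MAPK8, 7.79 ± 0.576 for MAPK11 and 6.86 ± 0.899 for MAPK13. Of neighbours in that order, MAPK9 and MAPK14, MAPK14 and MAPK12, and MAPK11 and MAPK13 overlapped within their SD. In the controls of the overexpression comparison the order was the same, from 75.0 TPM ± 16.8 for MAPK3 to 13.9 ± 1.34 for MAPK13. There MAPK3 and MAPK9 overlapped within their SD, as did MAPK14 and MAPK12, and MAPK11 and MAPK13. This order between genes holds for TPM only. On the deposited coverage column MAPK11 (71.4 and 65.9) stood above MAPK9 (47.5 and 49.2) in the knockout controls.

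**Figure D1:**
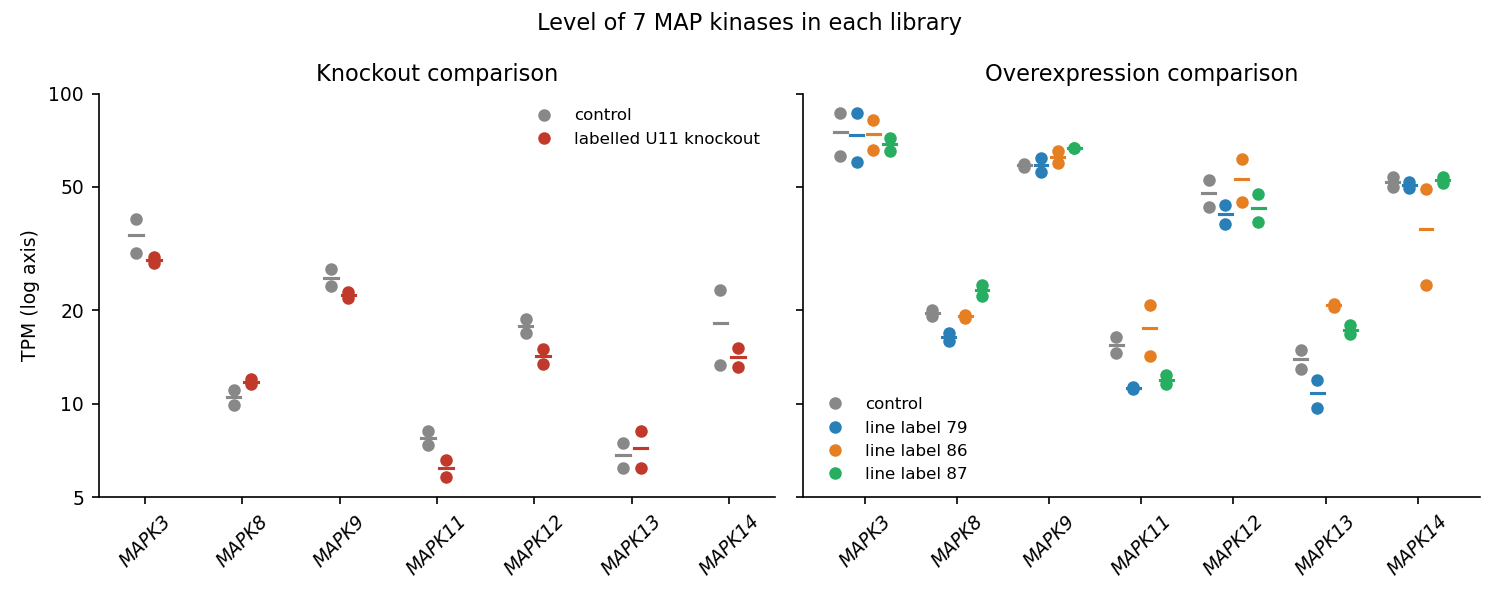
TPM of the 7 expressed MAP kinases (log axis) in each library of the knockout comparison (left) and the overexpression comparison (right); points are libraries and bars are group means. MAPK3 and MAPK9 sit highest in most libraries; MAPK14 of line label 86 is split between 49.2 and 24.1 TPM, and MAPK13 of line labels 86 and 87 lies above line label 79.

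ERK was represented by MAPK3 (ENSG00000102882, chr16:30114105-30123506, minus strand), which phosphorylates targets such as the RSK kinases and ELK1 after growth factor signals. It gave 39.5 and 30.6 TPM in the knockout controls, whereas the libraries labelled U11 knockout gave 28.4 and 29.6 TPM. The groups did not overlap, but the gap from the lower control to the higher knockout library was small beside the distance between the controls. The log2 fold change was -0.25 (SE 0.15, adjusted p = 0.313, limma) and its 95% interval ran from -0.63 to 0.13. In the overexpression comparison MAPK3 had 86.8 and 63.1 TPM in the controls, with 60.1 to 86.6 TPM in the 6 overexpression libraries, a full overlap with a log2 fold change of -0.05 (SE 0.16, adjusted p = 0.982, limma).

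The JNK kinases phosphorylate JUN and related factors under stress. MAPK8 (JNK1, ENSG00000107643, chr10:48306639-48439360, plus strand) gave 9.94 and 11.1 TPM in the knockout controls, whereas the libraries labelled U11 knockout gave 12.01 and 11.6 TPM. It was the only expressed kinase of the 7 with both knockout libraries above both controls, by a log2 fold change of 0.15 (SE 0.12, adjusted p = 0.429, limma). On another scale, coverage per aligned gigabase, its log2 fold change was -0.10. MAPK9 (JNK2, ENSG00000050748, chr5:180233143-180292099, minus strand) gave 27.1 and 23.9 TPM in the knockout controls, whereas the libraries labelled U11 knockout gave 22.9 and 21.9 TPM. Both lay below both controls, with a log2 fold change of -0.18 (SE 0.11, adjusted p = 0.338, limma).

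Neither JNK gene separated from the controls in the overexpression comparison. MAPK8 had 20.1 and 19.2 TPM in the controls, with 16.0 to 24.2 TPM in the overexpression libraries, on both sides of the controls, with a log2 fold change of -0.02 (SE 0.15, adjusted p = 0.995, limma). MAPK9 had 59.2 and 58.1 TPM in the controls, with 56.0 to 66.9 TPM in the overexpression libraries. Of the 6 libraries 5 lay above both controls, and the log2 fold change was 0.09 (SE 0.09, adjusted p = 0.925, limma). The MAPK9 estimate was the most precise of the 7, with a 95% interval in fold change from 0.928 to 1.23.

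MAPK9 held most of the JNK signal. Its share of the summed TPM of the 3 JNK genes was 70.6% ± 3.34 (SD, n = 2) in the knockout controls and 65.3% ± 0.268 (n = 2) in the libraries labelled U11 knockout, a difference of -5.32 percentage points. In an exact permutation test (two-sided) p was 0.333, the smallest that 2 against 2 libraries allow. On the coverage column the difference was -1.42 points (exact permutation p = 0.667). For the overexpression set the share was 74.9% ± 0.295 (n = 2) in the controls and 76.2% ± 2.12 (n = 6) in the overexpression libraries, with p = 0.464 in the same exact test, whose smallest value there is 0.0357.

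The p38 kinases are named alpha (MAPK14), beta (MAPK11), gamma (MAPK12) and delta (MAPK13), and act in stress and inflammatory responses. MAPK11 and MAPK12 lie next to each other on chromosome 22 on the minus strand, at chr22:50263713-50270767 and chr22:50245450-50261825. MAPK13 and MAPK14 are likewise neighbours on chromosome 6 on the plus strand, at chr6:36127809-36144524 and chr6:36027677-36111236. Their identifiers are ENSG00000185386 (MAPK11), ENSG00000188130 (MAPK12), ENSG00000156711 (MAPK13) and ENSG00000112062 (MAPK14).

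MAPK11 and MAPK12 were both lower in the libraries labelled U11 knockout, without passing the test. MAPK11 gave 8.19 and 7.38 TPM in the knockout controls, whereas the libraries labelled U11 knockout gave 6.60 and 5.79 TPM, with no overlap and a log2 fold change of -0.29 (SE 0.13, adjusted p = 0.217, limma). MAPK12 gave 18.7 and 16.9 TPM in the knockout controls, whereas the libraries labelled U11 knockout gave 15.01 and 13.5 TPM. Here too the groups did not overlap, and the log2 fold change was -0.30 (SE 0.12, adjusted p = 0.173, limma), the lowest unadjusted P of the 7 kinases at 0.0539. MAPK12 shares part of its span with HDAC10 on the same strand, so reads from the shared stretch cannot be told apart. MAPK11 has no such overlap. MAPK9 and MAPK14 each overlap an entry on the opposite strand, from which reads cannot be told apart without strand, and whether the counting used strand is not given in the sources used here.

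MAPK11 in the overexpression set had 16.4 and 14.6 TPM in the controls, with 11.2 to 20.9 TPM in the overexpression libraries. Of the 6 libraries 5 lay below both controls, and the exception was replicate 1 of line label 86, which was above both. The log2 fold change was -0.20 (SE 0.22, adjusted p = 0.925, limma). MAPK12 had 52.7 and 43.1 TPM in the controls, with 37.9 to 61.6 TPM in the overexpression libraries, with its highest value again in replicate 1 of line label 86, and a log2 fold change of -0.08 (SE 0.18, adjusted p = 0.972, limma).

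MAPK13 did not separate the groups in either comparison. It gave 7.50 and 6.23 TPM in the knockout controls, whereas the libraries labelled U11 knockout gave 6.19 and 8.17 TPM, which lay on either side of the controls, with a log2 fold change of 0.05 (SE 0.18, adjusted p = 0.870, limma). In the overexpression controls it was at 14.9 and 13.0 TPM and in the overexpression libraries at 9.69 to 21.0 TPM. The log2 fold change was 0.17 (SE 0.27, adjusted p = 0.954, limma), and the overexpression libraries parted by line label.

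MAPK14 was the expressed kinase whose libraries of the same group differed most. It gave 23.2 and 13.4 TPM in the knockout controls, whereas the libraries labelled U11 knockout gave 15.2 and 13.2 TPM. Replicate 1 of the controls stood above the other 3 libraries, and replicate 2 of the controls stood between the libraries labelled U11 knockout. The log2 fold change of -0.30 therefore had the widest interval of the 7, from -0.998 to 0.39 (adjusted p = 0.5004, limma). Without control replicate 1 it was 0.07, and without control replicate 2 it was -0.68, each fit leaving 1 control. The fit without control replicate 2 was the only setting in which a kinase was called. Its only control was replicate 1, the library that stood apart, so that call rests on this library.

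A second library stood apart for MAPK14 in the overexpression comparison. Controls were at 53.8 and 49.9 TPM, line label 79 at 49.8 and 51.7 TPM and line label 87 at 53.7 and 51.7 TPM, so these 6 libraries lay within a narrow band. Line label 86 gave 49.2 TPM in replicate 1 and 24.1 TPM in replicate 3. On coverage per aligned gigabase these were 2.29 and 0.755, with 2.35 to 2.56 in the other 6 libraries. Of 9404 genes averaging 10 TPM or more in line label 86, 107 (1.14%) differed between its replicates by as much as the 2.04-fold of MAPK14. Between the knockout controls the ratio was 1.74, reached by 247 of 7301 genes (3.38%). The other 6 expressed kinases showed ratios of 1.02 to 1.46 between the replicates of line label 86.

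**Figure D2:**
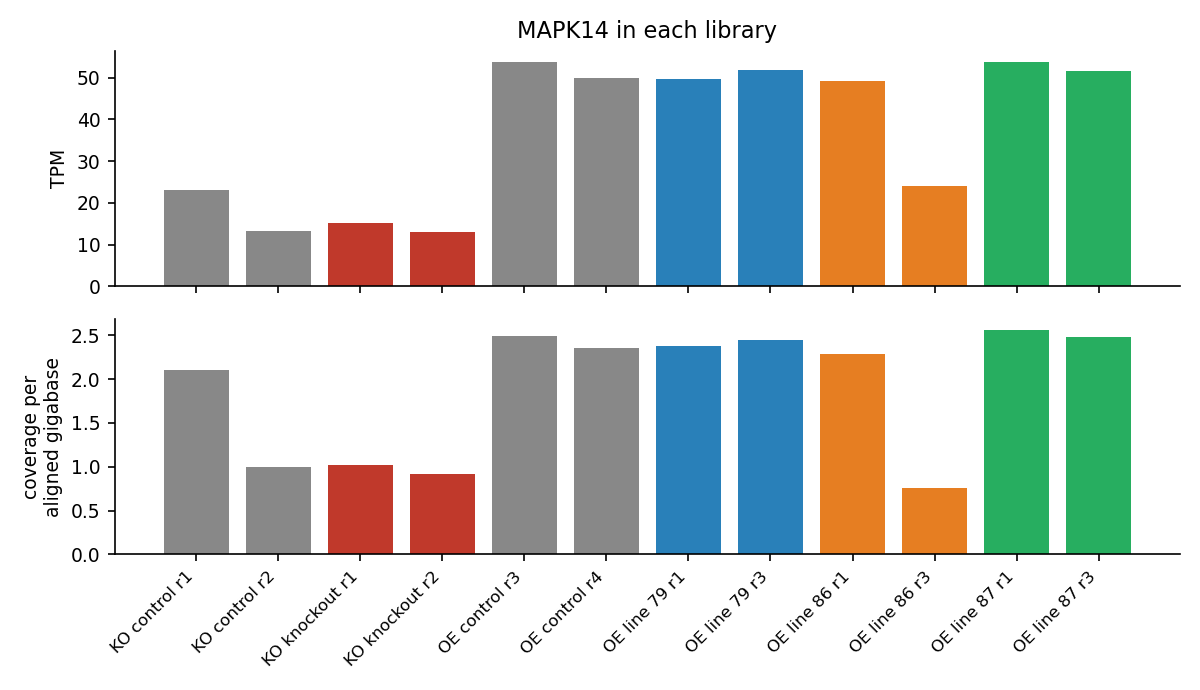
MAPK14 in each library as TPM (top) and as coverage per aligned gigabase (bottom), with bars from 0; KO marks the knockout comparison, OE the overexpression comparison, and r the replicate. Knockout control replicate 1 stands at 23.2 TPM above 3 libraries at 13.2 to 15.2 TPM, and line label 86 replicate 3 stands at 24.1 TPM below 7 libraries at 49.2 to 53.8 TPM, on both scales.

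The share of MAPK14 in the summed TPM of the p38 genes was 35.4% ± 6.92 (SD, n = 2) in the knockout controls and 33.9% ± 2.02 (n = 2) in the libraries labelled U11 knockout. In the overexpression comparison it was 40.2% ± 1.66 (n = 2) in the controls and 38.2% ± 8.81 (n = 6) in the overexpression libraries, the lowest being 23.2% in replicate 3 of line label 86. The differences of -1.51 and -1.99 percentage points gave exact permutation p = 1.0 and 0.857. The p38 genes together held 39.1% to 42.9% of what the 8 kinases had in the knockout set and 40.9% to 48.6% in the overexpression set. The differences between groups were -1.72 and -1.71 percentage points (exact permutation p = 0.667 and 0.429), and on the coverage column -1.85 and -3.35 points (exact permutation p = 0.667 and 0.107). The order of the p38 genes depended on the scale. On the deposited coverage column MAPK14 held only 9.13% to 16.3% of the p38 signal in the knockout set and 6.03% to 20.9% in the overexpression set.

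Across the family, none of the 7 kinases tested was called in the knockout comparison by the study's thresholds (unadjusted P under 0.05 and at least 1.5-fold), where 11.8% of 14356 genes were. None was called with an adjusted p under 0.05 and the same fold, where 6.85% of genes were, and none had an unadjusted P under 0.05, where 30.1% did. MAPK3, MAPK9, MAPK11 and MAPK12 were lower and MAPK8 higher in both knockout libraries than in both controls, so 5 of 7 kinases did not overlap between the groups, where 60.2% of all genes did not. The median log2 fold change of the 7 kinases was -0.25, whereas that of all genes tested was 0.11. Relative to that shift 6 of the 7 lay below the median of all genes, MAPK8 being the exception. Below 0 lay 5 of the 7, where 36.3% of all genes did. The size of this tilt depended in part on control replicate 1. Without it, leaving 1 control, the fold changes were -0.07 for MAPK3, -0.09 for MAPK9, -0.22 for MAPK11 and -0.23 for MAPK12. They were 0.07 for MAPK14, 0.08 for MAPK8 and 0.17 for MAPK13, against a median of 0.06 over all genes. Without control replicate 2 they ran from -0.68 (MAPK14) to 0.23 (MAPK8). Coverage per aligned gigabase, a share of the library's aligned bases and so also relative to a total, gave fold changes below 0 for all 7 kinases. They ran from -0.55 for MAPK14 to -0.10 for MAPK8, against a median of 0.03 over all genes. Among these MAPK3, MAPK11 and MAPK12 had unadjusted P of 0.0396, 0.0156 and 0.0287, but adjusted p of 0.125, 0.0735 and 0.105 (limma), and 34.7% of all genes had an unadjusted P under 0.05 on that scale. None of the 7 was called there.

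In the overexpression comparison none of the 7 was called either, where 1.93% of 15768 genes were by the study's thresholds and 0.165% with an adjusted p under 0.05. None had an unadjusted P under 0.05, where 5.9995% of genes did, nor on coverage per aligned gigabase, where 6.24% did. No kinase had groups without overlap, where 9.87% of genes did. The median of the 7 was -0.05 and that of all genes -0.02. Within each library code series, by the mean of 3 overexpression libraries against 1 control, MAPK9 and MAPK13 were higher in both. MAPK11, MAPK12 and MAPK14 were lower in both by that mean, while MAPK3 (-0.12 and 0.01) and MAPK8 (-0.06 and 0.02) changed sign. Not all libraries followed these means. For MAPK14 in R18019 line labels 79 and 87 (both 51.7 TPM) were above the control (49.9 TPM), with line label 86 at 24.1 TPM. MAPK13 of line label 79 was below the control in both series, and MAPK12 of line label 86 above it in both. In R17018 MAPK9 of line label 79 was below and MAPK11 of line label 86 above the control. How many of all genes keep their sign was not computed. The fold changes of the knockout and overexpression comparisons were also tested against each other. That difference passed for 0 of the 7 kinases and for 3.36% of 13792 genes (adjusted p under 0.05, limma), MAPK9 having the lowest adjusted p of the 7 at 0.302.

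**Figure D3:**
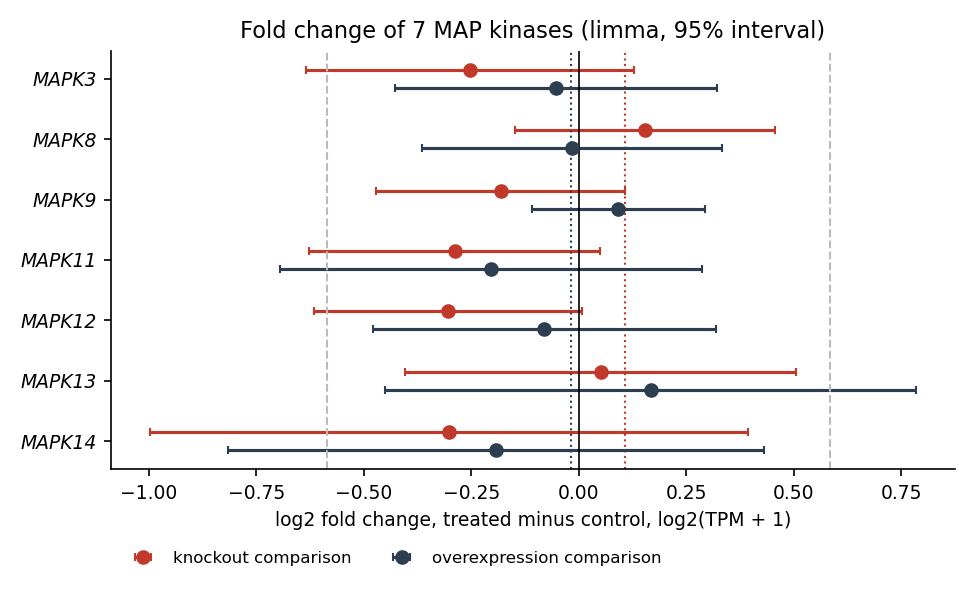
Log2 fold change of the 7 tested kinases with 95% intervals (limma), treated minus control, in the knockout (red) and overexpression (dark) comparisons. Dotted lines mark the median of all genes (0.11 and -0.02), dashed lines mark 1.5-fold; all intervals cross 0.

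The 3 line labels of the overexpression libraries differed from each other in 2 of the 7 kinases, MAPK13 and MAPK8, where 16.0% of all genes differed (F test of limma, adjusted p under 0.05). MAPK13 was at 11.96 and 9.69 TPM in line label 79, 20.5 and 21.0 TPM in line label 86 and 16.8 and 17.9 TPM in line label 87 (adjusted p = 0.00994, limma). The 3 labels did not overlap in TPM, and their order in TPM was the same in both library code series. On coverage per aligned gigabase line label 79 was again the lowest, at 1.97 and 1.82, but line labels 86 (2.95 and 2.70) and 87 (2.53 and 2.77) overlapped. Line label 86 exceeded 79 by a log2 difference of 0.89 (SE 0.12, adjusted p = 0.0066, limma). Line label 87 exceeded 79 by 0.64 (SE 0.12, adjusted p = 0.0213, limma), and 87 and 86 differed by -0.25 with an interval from -0.54 to 0.04.

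MAPK8 was at 16.9 and 16.0 TPM in line label 79, 18.9 and 19.4 TPM in line label 86 and 22.3 and 24.2 TPM in line label 87 (adjusted p = 0.0225, limma). These labels did not overlap either and kept their order in both library code series. Line label 87 exceeded 79 by a log2 difference of 0.48 (SE 0.08, adjusted p = 0.0145, limma), a difference under 1.5-fold on this scale. The call of MAPK8 was lost when any of the 6 overexpression libraries was left out (adjusted p 0.0541 to 0.0965, limma), which leaves a label with 1 library. It was also lost with all libraries on coverage per aligned gigabase (adjusted p = 0.0509, limma), where the labels kept the same order without overlap. The call of MAPK13 held in all 15 alternatives tried.

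MAPK13 was the only one of the 7 kinases past both an adjusted p of 0.05 and 1.5-fold in TPM between pairs of line labels. It passed in 86 against 79, where 7.49% of genes did, and in 87 against 79, where 6.45% did. No kinase passed in 87 against 86, where 4.01% did. On coverage per aligned gigabase the MAPK13 differences were 0.55 (adjusted p = 0.0232, limma) and 0.47 (adjusted p = 0.0441, limma), both under 1.5-fold. The other kinases did not pass the F test, with adjusted p of 0.109 for MAPK11, 0.318 for MAPK14, 0.334 for MAPK9, 0.389 for MAPK12 and 0.938 for MAPK3 (limma). With the library code series as a term, MAPK12 passed (adjusted p = 0.0486, limma). MAPK11 had 11.3 and 11.2 TPM in line label 79, 12.4 and 11.6 TPM in line label 87 and 20.9 and 14.3 TPM in line label 86. With replicate 3 of line label 86 left out MAPK11 passed the F test, and with replicate 1 of that label left out MAPK14 did. In each case the remaining library of line label 86 was the outlying library of that kinase, so these calls rest on it.

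No line label differed from the controls in any of the 7 kinases by both thresholds with an adjusted p under 0.05. By the study's thresholds the counts were 0 of 7 in each label, where 7.95% of genes were called in line label 79, 3.60% in line label 86 and 5.13% in line label 87. MAPK13 had the lowest P, with a log2 difference of 0.55 in line label 86 (SE 0.12, unadjusted P 0.0033, adjusted p = 0.0984, limma), -0.34 in line label 79 and 0.30 in line label 87. MAPK14 had the largest difference, -0.57 in line label 86 (SE 0.29, adjusted p = 0.470, limma), whose 2 libraries disagreed. MAPK8 gave -0.25 in line label 79, -0.03 in line label 86 and 0.23 in line label 87. The line labels also differed in U11 level, 87 being the highest and 79 the lowest of the 3. Line label 79 lay within the range of its controls. The part of U11 in these differences was not tested.

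**Figure D4:**
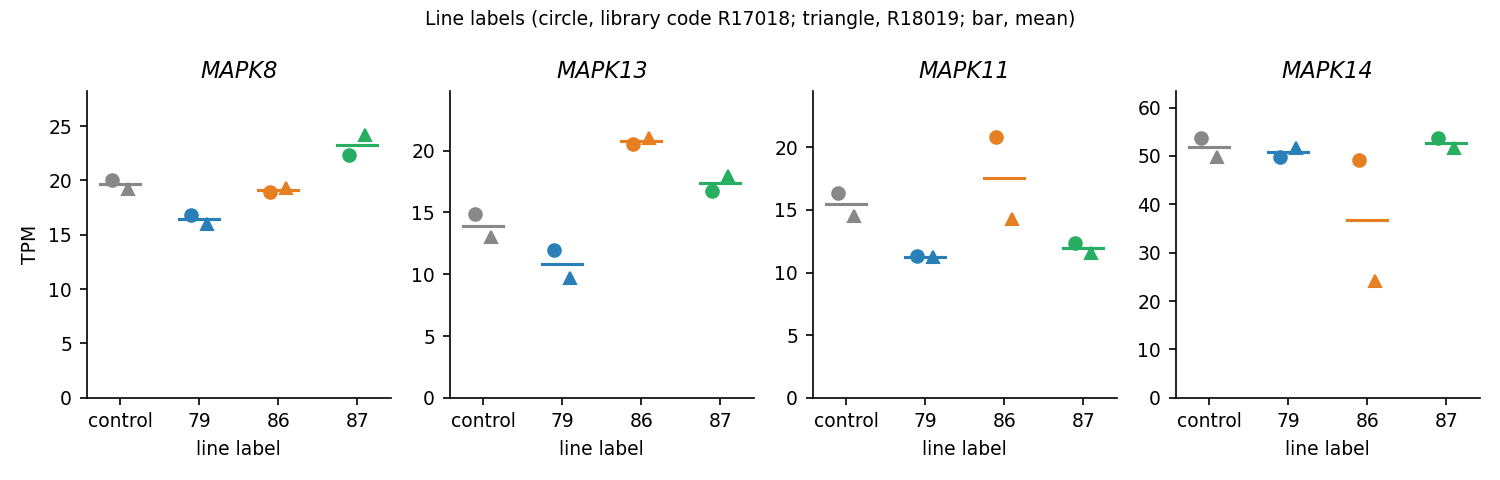
TPM of MAPK8, MAPK13, MAPK11 and MAPK14 in the 8 libraries of the overexpression comparison by line label (axes from 0; circle and triangle, the 2 library code series; bar, mean of 2). MAPK8 runs from 16.0 TPM in line label 79 to 24.2 in 87, MAPK13 from 9.69 in 79 to 21.0 in 86, and the replicates of line label 86 part in MAPK11 and MAPK14.

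The genes with the most similar pattern over the 12 libraries were found by Pearson's r of log2(TPM + 1), each comparison centred on its own mean, over 13792 genes. They are a description only, since the libraries share scaling and groups. MAPK8 was most like PRRG4 (r = 0.974) and CASP10 (r = 0.959), MAPK13 like RHBDD2 (0.948) and PKIG (0.901), and MAPK9 like NUBP1 (0.929) and ACO1 (0.914). MAPK12 was most like TTLL12 (r = 0.966) and CYHR1 (0.962), MAPK11 like TFDP1 and RBM15B (both 0.937) and MAPK3 like TRMT1 (0.906) and IFITM2 (0.900). MAPK14 had the lowest best match, ADCK3 (r = 0.869), followed by MFSD2B (0.840). Within the family the neighbours MAPK11 and MAPK12 followed each other (r = 0.908), whereas the neighbours MAPK13 and MAPK14 did not (r = -0.355).

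Outside the 8 kinases, 78 genes of the same cascades were followed in 7 lists of MAP2K and MAP3K kinases, MAPK-activated kinases, scaffolds, MAP kinase phosphatases, atypical MAP kinases and transcription factor targets. In the knockout comparison 68 were tested, of which 5 rose and 0 fell by the study's thresholds (7.35%, against 11.8% of all genes). DUSP10, a phosphatase known to act on JNK and p38 kinases, rose from 2.44 ± 0.221 to 6.996 ± 0.221 TPM (mean ± SD, n = 2 and 2), a log2 fold change of 1.22 (SE 0.12, adjusted p = 0.0177, limma). It was the single list gene called with an adjusted p under 0.05. The other 4 had adjusted p of 0.0567 to 0.0686 (limma). They were MAP3K7 (TAK1, a MAP3K upstream of JNK and p38) with a log2 fold change of 0.81, SPAG9 (a JNK scaffold) with 0.68, MEF2D (a transcription factor that p38 kinases phosphorylate) with 0.63 and MAPK6 (the atypical kinase ERK3) with 0.62.

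By role, the knockout counts were 0 of 7 MAP2K, 1 of 20 MAP3K, 0 of 11 MAPK-activated kinases, 1 of 6 scaffolds, 1 of 9 phosphatases, 1 of 3 atypical kinases and 1 of 12 transcription factors. The median log2 fold change of the 68 was 0.26, whereas the median of all genes was 0.11 and that of the 7 kinases -0.25. Of the 68, 55 lay above 0 and 13 below, where 36.3% of all genes lay below 0. Of 69 list genes 0 were called in the overexpression comparison, where 1.93% of all genes were, and their median was 0.01. Among the line labels 14 of 69 differed (20.3%, against 16.0% of all genes), 4 of them MAP3K and 4 of them phosphatases.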

How the data were processed

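The authors trimmed reads with fastp, aligned them to hg38 with Hisat2 and quantified every library with Stringtie. Per gene, the tables the authors deposited hold TPM, FPKM (fragments scaled by length and depth) and coverage (mean aligned bases per position). Versions and the annotation are not given in the sources used here. The labels name polyA RNA and the methods of the study name rRNA depletion. No read counts were used. TPM gives shares of one total, so a few very abundant genes lower all others, and it gives no counting error on a single value.

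Genes reaching 1 TPM in at least 2 compared libraries were tested on log2(TPM + 1) with limma 3.58.1 in R 4.3.3 (mean-variance trend), and p-values were adjusted over all genes tested (Benjamini-Hochberg). Fold changes on this scale understate those of low genes. Genes were called by the study's thresholds, unadjusted P under 0.05 and at least 1.5-fold. The script was tested on simulated data. The 4 groups of the overexpression comparison shared one estimate of the spread in tests by line label. Shares of summed TPM were compared by an exact permutation test. Coverage per aligned gigabase, added after seeing the data, divides coverage by the upper limit of its ratio to FPKM in each library (pseudocount 0.1). Introns came from GENCODE release 44 on hg38, and gene coordinates from the deposited files.

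The kinases and the lists were chosen with earlier results of these data known. The text names all 8 kinases, RNU11, in each comparison up to 5 rising and 5 falling list genes past both thresholds, and the 2 genes most similar to each kinase. Protein sequences are not given here, and 1 further marker chosen for other cell types is not reported here.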

Additional observations from a re-analysis of the deposited data

Results flagged for a closer look

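For each kinase and share of summed TPM, the lowest and highest of the 6 overexpression libraries were compared with the nearest other (Dixon's ratio). Chance exceeds its limit in about 1 of 20 groups drawn from a homogeneous population. The 6 libraries come from 3 line labels, and both ends of every kinase and share were tried, so that rate is only a guide. MAPK14 was far lower in replicate 3 of line label 86 (24.1 TPM) than in the other 5, and MAPK11 was far higher in replicate 1 of the same label (20.9 TPM). The line labels differed in MAPK8 (adjusted p = 0.0225, limma) and in MAPK13 (adjusted p = 0.00994, limma).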

How the results depend on the processing

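The knockout comparison gave 1688 genes called, and 984 with an adjusted p in place of the unadjusted one or 4319 without the fold threshold. The overexpression comparison gave 304, and 154 on FPKM, 26 with an adjusted p and 946 without the fold threshold. The number of kinases called was 0 in both, and with a library left out it was 0 to 1 in the knockout comparison (MAPK14 without control replicate 2). Of 105 knockout fold changes under alternatives 97 kept direction and side of the thresholds, and of 133 overexpression fold changes 125 did. Several of these alternatives changed only which genes were tested, how the spread was estimated or which threshold applied. They left the fold change of every kinase as it was, so its direction could not turn there. The counts therefore overstate how stable the directions were. The values that turned had not passed the test. In the knockout comparison MAPK13 turned on FPKM (-0.0352), under median ratio scaling (-0.0792), on coverage per gigabase (-0.28) and with a library left out (-0.12 to 0.23). MAPK8 turned on coverage per gigabase (-0.10) and MAPK14 with a library left out (-0.68 to 0.0746). In the overexpression comparison MAPK8 turned under median ratio scaling (0.0010) and with a library left out (-0.0767 to 0.0372), MAPK3 on coverage per gigabase (0.0731) and with a library left out (-0.28 to 0.18), MAPK12 with a library left out (-0.22 to 0.0621) and MAPK13 on coverage per gigabase (-0.0808). Among the line labels 2530 genes differed, and 1222 to 2050 with a library left out. The kinases that differed numbered 2, and 1 on coverage per gigabase (MAPK8 lost, adjusted p = 0.0509, limma) or 1 to 2 with a library left out. Under median ratio scaling the median of all genes in the knockout comparison went from 0.11 to -0.02. The knockout replicate numbers did not pair the libraries (correlation of deviations 0.0244); a replicate block gave 1706 genes called and no kinase. With the library code series as a replicate block, 284 genes were called in the overexpression comparison, and 3074 genes and 3 kinases differed among line labels, MAPK12 being the addition (adjusted p = 0.0486, limma); these deviations correlated at 0.0704 to 0.150. The crossed block, added after seeing the data, gave 1745 genes. Depth is known only as aligned bases, so counting error on a single value was not computed.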
